A study of Mus musculus with 10 samples.

Results

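The genes described are 10 genes known for their use in astroglia, out of 19938 mouse genes measured on the same arrays: Aldh1l1, Gfap, S100b, Aqp4, Slc1a2, Glul, Ndrg2, Gja1, Nfia and Nfib. They were taken by name, each through the probe set chosen by its mean over the 10 arrays, the highest of its gene, and all 10 were measured. The names were chosen with results of these arrays in view, in particular the levels of Aldh1l1 and the gap between the 2 forebrain cultures. That gap and the levels of Aldh1l1 are therefore given as descriptions, without a test. Counts of calls are over the other 9 members, except where the planned counts over all 10 are named. The tests of the other members are not independent evidence for the choice of the list.

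Astrocytes are the glial cells that take up glutamate and potassium at synapses, turn glutamate into glutamine, couple to each other through gap junctions and exchange water with blood vessels. In the mouse forebrain they arise from the same radial glia that first make neurons, and the switch depends on transcription factors of the nuclear factor I (NFI) family, on SOX9 and on cytokine signalling through STAT3. Many of the genes that identify astrocytes, Slc1a2, Glul and Ndrg2 among them, are also used by precursor cells or outside the brain, so a raised level of 1 of them is not by itself a sign of an astrocyte. ALDH1L1 is a cytosolic enzyme of folate metabolism that removes formyl groups from tetrahydrofolate, and its gene is a widely used label of astrocytes across brain regions.

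The arrays held 5 kinds of culture with 2 biological replicates each, and the labels do not say how the replicates were separated. The first, mESC, was the R1 mouse embryonic stem cell line, which came from 129/Sv mice, kept on inactivated embryonic fibroblasts in medium with 15% serum and 1000 U/ml Lif. The second, p-NSC_L, was primary spheres of primitive neural stem cells made from the R1 cells at low density without serum in N2 medium with 1000 U/ml Lif, and the third, p-NSC_LF, was the secondary passage of such spheres in 1000 U/ml Lif, 10 ng/ml FGF and 2 µg/ml heparin. The fourth, d-NSC, was definitive neural stem cells obtained by passaging the primitive ones into N2 and B27 with 20 ng/ml FGF, 20 ng/ml EGF and 2 µg/ml heparin, with no Lif stated. Lif, the FGF dose (20 ng/ml in d-NSC, against 10 ng/ml in p-NSC_LF), EGF and B27 thus all differed between d-NSC and p-NSC_LF and cannot be told apart. The fifth, CNS-NSC, was neural stem cells grown from the frontal lobes of wild-type ICR embryos at E11.5 in N2 with FGF, EGF and heparin at the d-NSC amounts and no B27 stated, so strain, origin and B27 cannot be told apart in a comparison of d-NSC with CNS-NSC. CNS-NSC differed from mESC in strain, origin, serum, Lif, FGF, EGF and heparin, which cannot be told apart either. The same holds for serum, medium and sphere culture in p-NSC_L against mESC. It also holds for passage, FGF and heparin in p-NSC_LF against p-NSC_L. All R1-derived groups come from 1 cell line.

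Values are log2 intensities from Affymetrix whole-transcript arrays, so a difference of 1 is 2-fold. Differences are given as the first group minus the second, ± SE from limma, with 2 arrays in each group, and a gene is said to rise or fall where its p, adjusted over all 19938 genes, was below 0.05. Replicates differed by at least 2-fold at 277 genes in CNS-NSC and at 167 in p-NSC_L, against 1 to 30 in the other 3 groups. Hprt, a housekeeping gene of purine salvage, read at least 10.45 on 8 arrays, but 6.99 and 6.76 on the mESC arrays, which the labels do not account for, so in both comparisons with mESC a difference of cell stock cannot be told apart from the difference of culture. The mean level of 12 pluripotency genes was 12.1 and 12 in mESC, 12.26 and 12.27 in p-NSC_L, 12.33 and 12.26 in p-NSC_LF, 9.66 and 9.64 in d-NSC, and 7.26 and 7.31 in CNS-NSC. Nes, the neural precursor filament gene nestin, read 7.26 and 6.94 in p-NSC_L and 7.17 and 7.38 in p-NSC_LF, against 7.48 and 7.47 in mESC. Both primitive cultures thus held the pluripotency genes near the mESC level, with nestin no higher than in mESC. In d-NSC and CNS-NSC nestin read 10.04 and 9.84, and 11.42 and 11.63. Fewer cells of a type and less RNA per cell cannot be told apart in any of these values.

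The start regions of Aldh1l1, Gfap and S100b are shown because these 3 genes serve as astrocyte markers side by side. In the levels below, Aldh1l1 was highest in p-NSC_L and p-NSC_LF, whereas Gfap and S100b both had their highest mean in CNS-NSC. Each window runs from 250 bases before the RefSeq transcription start to 30 bases from it (RefSeq, build GRCm38.p6), and bases in capitals match a motif of a factor described below. The motifs searched on both strands were TTGGCA, 1 arm of the site that NFI dimers bind, and TTCNNNGAA, the site of STAT factors, which share no match in these windows. Aldh1l1 lies at chr6:90550543-90550822 on the plus strand, Gfap at chr11:102897171-102897450 on the minus strand and S100b at chr10:76253586-76253865 on the plus strand.
Aldh1l1: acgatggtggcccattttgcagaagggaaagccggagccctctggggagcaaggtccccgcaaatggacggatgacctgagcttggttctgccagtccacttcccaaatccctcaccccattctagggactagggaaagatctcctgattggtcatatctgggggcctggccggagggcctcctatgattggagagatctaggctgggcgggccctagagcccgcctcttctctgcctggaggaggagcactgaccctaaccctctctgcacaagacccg
Gfap: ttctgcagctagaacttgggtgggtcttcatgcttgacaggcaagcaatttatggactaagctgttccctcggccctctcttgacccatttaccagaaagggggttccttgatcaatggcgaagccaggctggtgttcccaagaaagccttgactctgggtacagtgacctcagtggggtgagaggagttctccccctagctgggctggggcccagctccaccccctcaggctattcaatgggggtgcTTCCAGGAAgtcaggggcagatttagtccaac
S100b: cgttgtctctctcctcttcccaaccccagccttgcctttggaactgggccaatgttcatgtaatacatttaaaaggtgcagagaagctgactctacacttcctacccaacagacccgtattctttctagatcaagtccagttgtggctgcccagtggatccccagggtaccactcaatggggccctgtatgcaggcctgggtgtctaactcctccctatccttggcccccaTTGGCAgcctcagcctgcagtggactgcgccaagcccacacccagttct
The Gfap window held 1 STAT match at base 249 and the S100b window held 1 NFI match at base 232, counted from 1 at the 5′ end. The Aldh1l1 window held neither motif, which says only that these letters are not in these 280 bases. Windows were searched for 8 of the 10 members, and the 5 members searched but not printed held no match either. Over 32851 mouse windows of the same length, 13.4% held the NFI motif and 7.83% the STAT motif.

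Aldh1l1 was high in the 2 primitive cultures and low in d-NSC. It read 7.63 and 7.68 in mESC, 9.65 and 9.72 in p-NSC_L, 9.68 and 9.74 in p-NSC_LF, 7.42 and 7.25 in d-NSC, and 8.10 and 8.89 in CNS-NSC. The 4 primitive arrays lay within 0.1 of each other and above every other array, and both d-NSC arrays lay below both mESC arrays. The difference was 2.03 ± 0.20 for p-NSC_L minus mESC, a 4.09-fold higher mean, and 0.03 ± 0.20 for p-NSC_LF minus p-NSC_L. It was −2.37 ± 0.20 for d-NSC minus p-NSC_LF, a 5.19-fold lower mean, −1.16 ± 0.20 for d-NSC minus CNS-NSC and 0.84 ± 0.20 for CNS-NSC minus mESC. The last 2 rest on CNS-NSC arrays that are themselves 0.79 apart: without CNS-NSC replicate 2 they were −0.76 and 0.45.

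**Figure D1:**
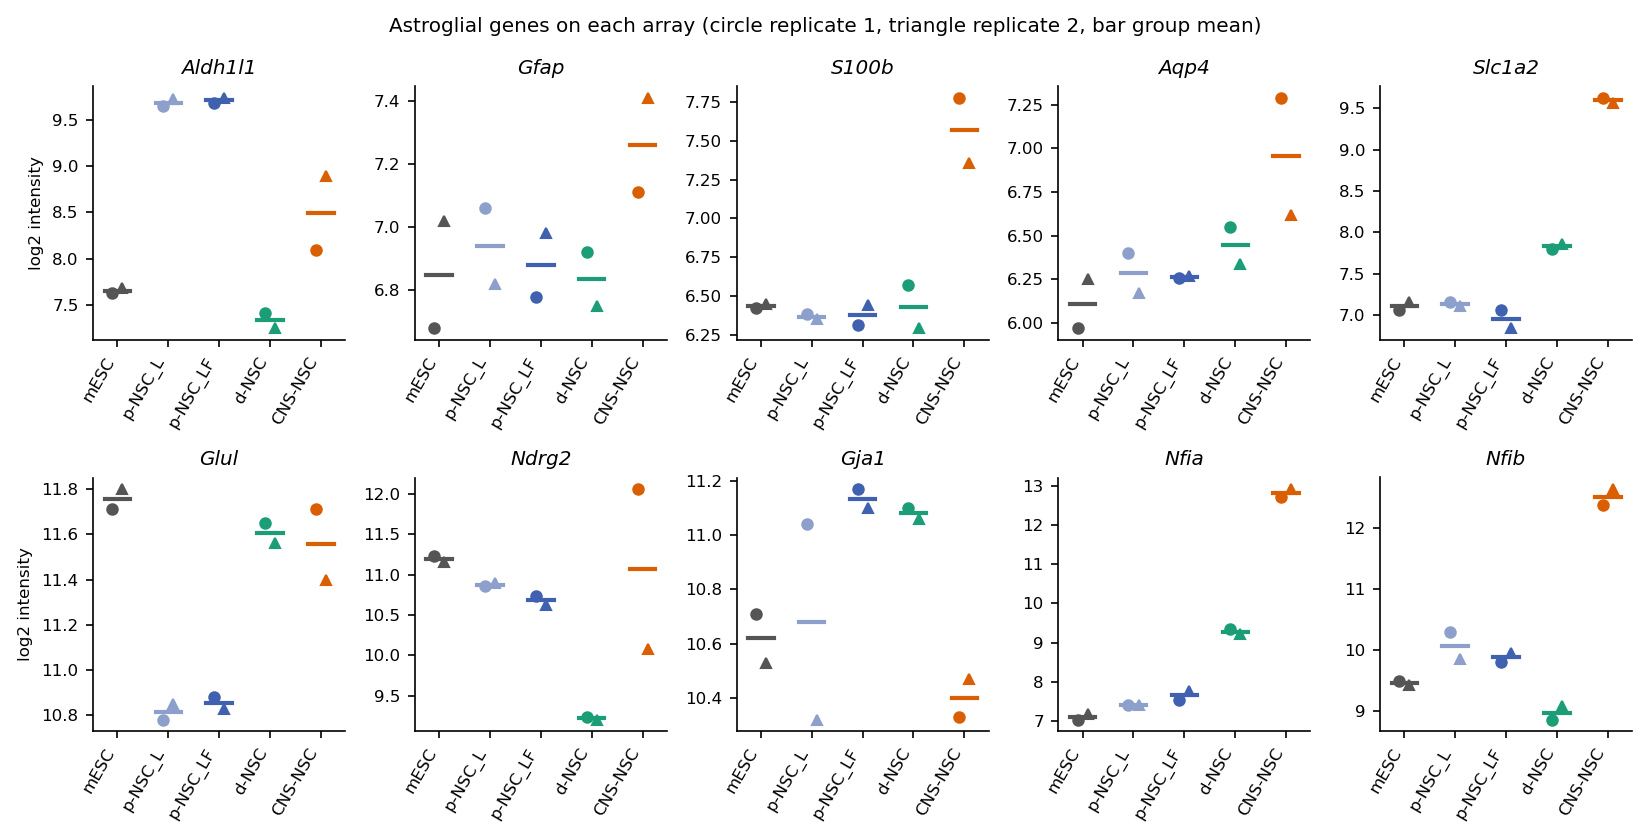
Log2 intensity of each of the 10 astroglial genes (vertical axes, scaled to each gene) on every array, by culture (horizontal axis); circles are replicate 1, triangles replicate 2 and bars group means. Aldh1l1 is highest in p-NSC_L and p-NSC_LF, while Gfap, S100b, Aqp4, Slc1a2, Nfia and Nfib have their highest mean in CNS-NSC.

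Aldh1l2, the mitochondrial counterpart of Aldh1l1, took the opposite course in d-NSC relative to p-NSC_LF. It read 11.15 and 11.12 in d-NSC, against 8.43 and 8.63 in p-NSC_LF, and the groups did not overlap. It rose by 2.60 ± 0.17, 6.08-fold (limma, adjusted p = 1.5e-06). It was also higher in d-NSC than in CNS-NSC, by 1.58 ± 0.17 (adjusted p = 5.69e-05), where Aldh1l1 was lower.

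Among 15 measured genes of folate and one-carbon metabolism other than Aldh1l1, 6 rose and 6 fell in d-NSC relative to p-NSC_LF. Their median difference was −0.30, against −0.01 for all genes, of which 19.3% rose and 19.3% fell. Mthfd2l and Shmt2, which encode mitochondrial enzymes, rose by 1.24 ± 0.10 and 1.08 ± 0.21. Mthfd1 and Shmt1, which encode cytosolic enzymes, changed by −1.46 ± 0.10 and −0.89 ± 0.13, and limma gave all 4 genes an adjusted p of at most 0.00222. Direction did not divide the list by compartment: Mtfmt, which encodes the mitochondrial enzyme that formylates the initiator tRNA, fell by 0.53 ± 0.12 (adjusted p = 0.00505). Tyms, the thymidylate synthase gene, and Atic, a purine synthesis gene, differed by −0.16 and −0.30 and were not called. Shmt2 differed by 0.82 between the CNS-NSC arrays, which read 10.73 and 11.55. Relative to CNS-NSC, 8 of the 15 were higher in d-NSC and 2 lower, against 17.6% and 16.5% of all genes. Mthfd2, another mitochondrial enzyme gene, was 1.89 ± 0.11 higher. Relative to mESC, 11 of the 15 were lower in CNS-NSC and 2 higher, against 22.1% and 21.7% of all genes. Folr1, a folate receptor gene, was 1.92 lower in CNS-NSC than in mESC.

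**Figure D2:**
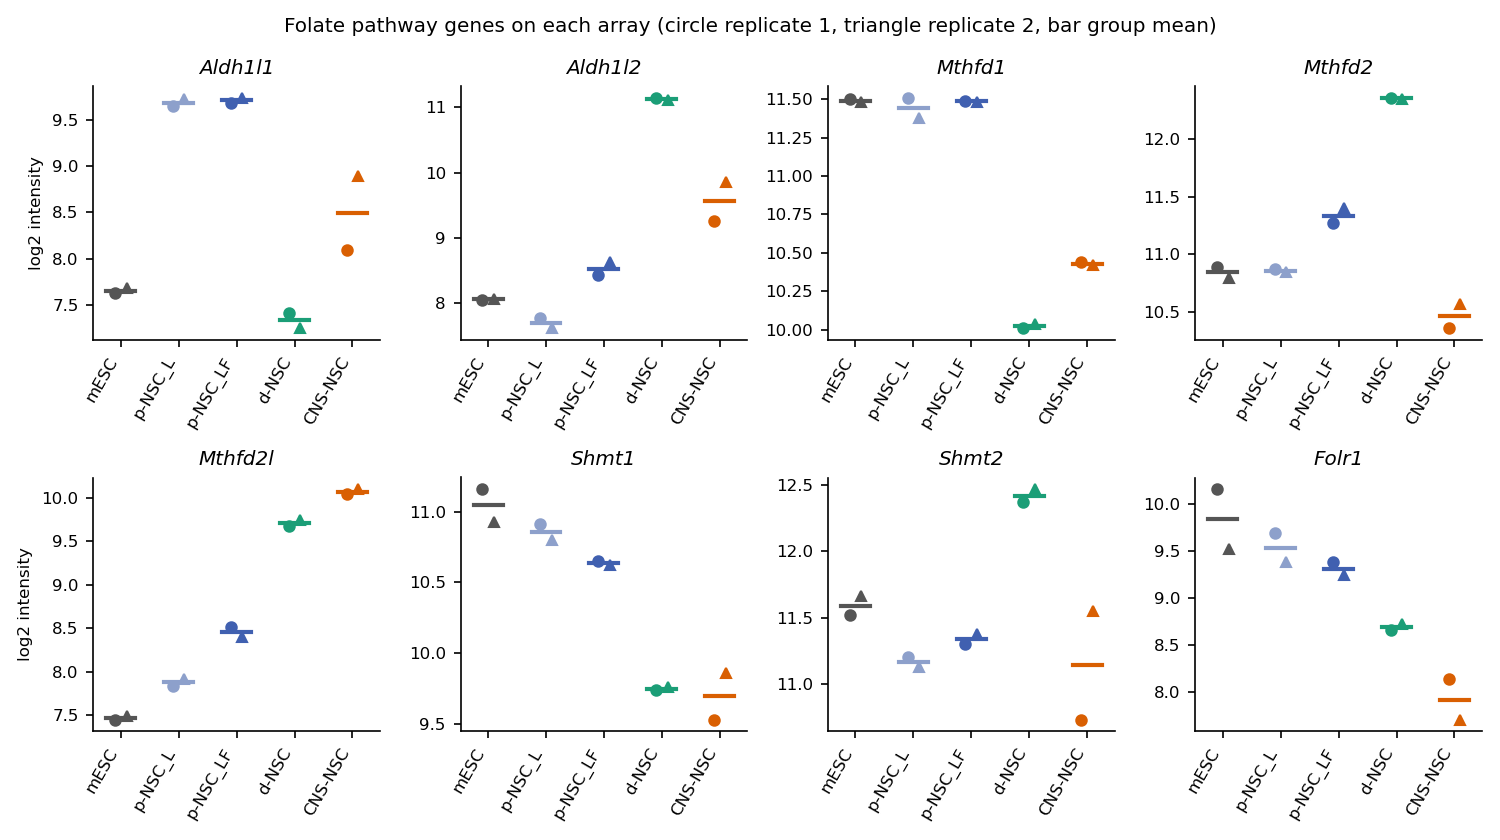
Log2 intensity of Aldh1l1 and 7 other folate pathway genes (vertical axes, scaled to each gene) on each array by culture; circles are replicate 1, triangles replicate 2 and bars group means. Aldh1l1, Mthfd1 and Shmt1 are lower in d-NSC than in p-NSC_LF, whereas Aldh1l2, Mthfd2, Mthfd2l and Shmt2 are higher.

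Nfia and Nfib encode 2 of the 4 NFI factors, which bind DNA as dimers and are needed for the onset of astrocyte genes in the mouse. Nfia read 7.03 and 7.19 in mESC, 7.41 and 7.40 in p-NSC_L, 7.54 and 7.76 in p-NSC_LF, 9.34 and 9.22 in d-NSC, and 12.71 and 12.91 in CNS-NSC. It was not called in p-NSC_L relative to mESC (0.29 ± 0.12, limma adjusted p = 0.153) or in p-NSC_LF relative to p-NSC_L. It rose by 1.63 ± 0.12 in d-NSC relative to p-NSC_LF (adjusted p = 3.21e-06) and stayed 3.53 ± 0.12, or 11.6-fold, below CNS-NSC (adjusted p = 2.2e-08). CNS-NSC exceeded mESC by 5.70 ± 0.12, which is 52.0-fold (limma, adjusted p = 6.07e-10).

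Nfib followed another order. It read 9.49 and 9.43 in mESC, 10.29 and 9.85 in p-NSC_L, 9.80 and 9.95 in p-NSC_LF, 8.85 and 9.08 in d-NSC, and 12.37 and 12.64 in CNS-NSC. The d-NSC arrays were the lowest of the 10 and the CNS-NSC arrays the highest. Nfib fell by 0.91 ± 0.16 in d-NSC relative to p-NSC_LF (adjusted p = 0.00123), the step at which Nfia rose, and was 3.54 ± 0.16 lower in d-NSC than in CNS-NSC (adjusted p = 1.24e-07). In p-NSC_L it was 0.61 ± 0.16 higher than in mESC (adjusted p = 0.0339), a call lost without either mESC replicate, without p-NSC_L replicate 1 (0.38), in the mean of its probe sets, in an unmoderated test and in a fit of the 2 groups alone, with adjusted p of 0.0751 to 0.161. The second probe set of each gene, which was dimmer, gave the same direction from p-NSC_LF to d-NSC and the highest values in CNS-NSC.

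Nfix, the third family member, read 8.07 and 7.93 in d-NSC, against 11.90 and 12.12 in CNS-NSC. The d-NSC level was 4.01 ± 0.13 lower (adjusted p = 1.63e-08), while its difference from p-NSC_LF of −0.22 was not called (interval −0.50 to 0.06). Nfic, the fourth, fell by 0.77 ± 0.14 in d-NSC relative to p-NSC_LF and was 1.22 ± 0.14 lower in d-NSC than in CNS-NSC. All 4 NFI genes were thus lower in d-NSC than in CNS-NSC, and only Nfia had risen from p-NSC_LF.

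Slc1a2 encodes GLT-1, the main glutamate transporter of forebrain astrocytes. It read 7.06 and 7.16 in mESC, 7.16 and 7.11 in p-NSC_L, 7.06 and 6.84 in p-NSC_LF, 7.80 and 7.86 in d-NSC, and 9.63 and 9.57 in CNS-NSC. Values lay between 6.84 and 7.16 in the first 3 cultures, higher in both d-NSC arrays and highest in both CNS-NSC arrays. The rise in d-NSC relative to p-NSC_LF was 0.88 ± 0.11 (adjusted p = 1.14e-04), and d-NSC stood 1.77 ± 0.11 below CNS-NSC (adjusted p = 9.48e-07). Slc1a3, the gene of the other astrocyte glutamate transporter and also a radial glia gene, rose by 1.61 ± 0.10 at the same step and was 1.84 ± 0.10 lower in d-NSC than in CNS-NSC.

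Glul encodes glutamine synthetase, which makes glutamine from the glutamate taken up. It read 11.71 and 11.80 in mESC, 10.78 and 10.85 in p-NSC_L, 10.88 and 10.83 in p-NSC_LF, 11.65 and 11.56 in d-NSC, and 11.71 and 11.40 in CNS-NSC. The primitive cultures were the low ones, with no overlap with the other 3 groups. Glul fell by 0.94 ± 0.12 in p-NSC_L relative to mESC (adjusted p = 8.93e-04) and rose by 0.75 ± 0.12 in d-NSC relative to p-NSC_LF (adjusted p = 5.81e-04). Between d-NSC and CNS-NSC it differed by 0.05, with an interval of −0.22 to 0.31. A second, dimmer Glul probe set read 11.20 and 10.86 in mESC, 10.47 and 10.39 in p-NSC_L, and 11.04 and 10.91 in d-NSC. The primitive arrays were lowest in it too, but its fall from mESC was smaller and its mESC and d-NSC arrays overlapped. The 2 cultures with the highest Aldh1l1 thus had the lowest Glul.

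Among 12 other measured genes of glutamate and glutamine handling, 4 rose and 4 fell in d-NSC relative to p-NSC_LF. Their median difference was 0.15, and 19.3% of all genes were called in each direction. Glud1, which encodes glutamate dehydrogenase, fell by 1.5 ± 0.10, and Slc38a1, a glutamine transporter gene, rose by 0.82 ± 0.09. Slc38a3, the gene of an astrocyte glutamine transporter, read 8.89 and 8.66 in d-NSC, against 11.95 and 10.93 in CNS-NSC. It was 2.67 ± 0.28 lower in d-NSC (limma, adjusted p = 4.76e-05), and the CNS-NSC replicates were far apart.

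Gja1 and Aqp4 encode channels, the main connexin of the astrocyte gap junctions and the water channel of astrocyte endfeet. Gja1 read 10.71 and 10.53 in mESC, 11.04 and 10.32 in p-NSC_L, 11.17 and 11.10 in p-NSC_LF, 11.10 and 11.06 in d-NSC, and 10.33 and 10.47 in CNS-NSC. The p-NSC_L replicates were 0.72 apart, against a range of 0.74 among the group means. Gja1 was 0.68 ± 0.19 higher in d-NSC than in CNS-NSC (adjusted p = 0.0201), opposite to most members, but the call was lost in an unmoderated test and without any of 3 single arrays (d-NSC replicate 1 or 2, CNS-NSC replicate 1; adjusted p 0.0804 to 0.101). Its difference of 0.45 ± 0.19 between p-NSC_LF and p-NSC_L was not called (adjusted p = 0.343). It was 0.81 without p-NSC_L replicate 1, with an adjusted p of 0.0178 in limma.

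Of the connexin relatives measured, Gjb2 rose by 1.16 ± 0.13 in d-NSC relative to p-NSC_LF. Gjc1 was 1.17 ± 0.10 higher in d-NSC than in CNS-NSC. Gjb6, which encodes the second connexin of astrocytes, lay between 5.62 and 5.97 on all 10 arrays. These values are below 6.49, the highest lower quartile of an array, so its lack of change is uncertain.

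Aqp4 read 5.97 and 6.25 in mESC, 6.40 and 6.17 in p-NSC_L, 6.26 and 6.27 in p-NSC_LF, 6.55 and 6.34 in d-NSC, and 7.29 and 6.62 in CNS-NSC. Its means in the first 4 cultures lay below 6.49, the highest lower quartile of an array, so the size of its differences is uncertain. Both CNS-NSC arrays exceeded the other 8. CNS-NSC was 0.85 ± 0.20 above mESC (adjusted p = 0.00552), or 0.71 without mESC replicate 1 (0.053) and 0.51 without CNS-NSC replicate 1. The difference of −0.51 ± 0.20 for d-NSC minus CNS-NSC was not called (adjusted p = 0.0758). It was −0.84 without CNS-NSC replicate 2, with an adjusted p of 0.00373.

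Gfap encodes the intermediate filament of mature and reactive astrocytes, and it was the member with the smallest range of group means, 0.43. It read 6.68 and 7.02 in mESC, 7.06 and 6.82 in p-NSC_L, 6.78 and 6.98 in p-NSC_LF, 6.92 and 6.75 in d-NSC, and 7.11 and 7.41 in CNS-NSC. The first 4 cultures overlapped with each other, and both CNS-NSC arrays lay above all others. None of its 5 differences was called. For d-NSC minus CNS-NSC the difference was −0.43 ± 0.16 (adjusted p = 0.0639), called in quantile-normalized values (0.0211) and without CNS-NSC replicate 1 (0.0372). For CNS-NSC minus mESC it was 0.41 ± 0.16 (adjusted p = 0.0594), called without mESC replicate 2 (0.0335) or CNS-NSC replicate 1 (0.0326).

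Vim, another intermediate filament gene that radial glia and astrocytes use, rose by 1.28 ± 0.11 in d-NSC relative to p-NSC_LF. In CNS-NSC it was 1.74 ± 0.11 above mESC. Among 14 measured genes linked to reactive astrocytes, 4 were higher and 4 lower in CNS-NSC than in mESC. Of all genes, 21.7% were higher and 22.1% lower. Serpina3n, which encodes a secreted protease inhibitor, rose by 1.34 ± 0.14, and Hspb1, a small heat shock protein gene, fell by 5.50 ± 0.13.

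S100b encodes a calcium-binding protein of astrocytes and of some oligodendrocyte precursors. It read 6.42 and 6.45 in mESC, 6.38 and 6.35 in p-NSC_L, 6.31 and 6.44 in p-NSC_LF, 6.57 and 6.29 in d-NSC, and 7.78 and 7.36 in CNS-NSC. Only CNS-NSC stood out, and the other 4 means lay below 6.49, so that the size of the gap is uncertain. S100b was 1.14 ± 0.15 lower in d-NSC than in CNS-NSC (adjusted p = 1.94e-04) and 1.13 ± 0.15 higher in CNS-NSC than in mESC (adjusted p = 1.24e-04). Its relative S100a10 was also lower in d-NSC than in CNS-NSC, by 1.64 ± 0.20 on the log2 scale. S100a6, which some neural precursors and astrocytes use, was 2.10 lower in CNS-NSC than in mESC.

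Ndrg2 encodes a cytoplasmic protein of the NDRG family that is abundant in astrocytes. It read 11.23 and 11.15 in mESC, 10.86 and 10.89 in p-NSC_L, 10.74 and 10.62 in p-NSC_LF, 9.24 and 9.20 in d-NSC, and 12.06 and 10.08 in CNS-NSC. The d-NSC arrays were the lowest, and the mESC arrays lay between the 2 CNS-NSC arrays. Ndrg2 fell by 1.46 ± 0.45 in d-NSC relative to p-NSC_LF (adjusted p = 0.0271), with an SE that carries the spread of the CNS-NSC arrays. In a fit of these 2 groups alone its adjusted p was 6.46e-06, and over all arrays the call was lost without any 1 of the 4 arrays compared (0.0832 to 0.11).

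Relative to CNS-NSC, Ndrg2 was 1.85 ± 0.45 lower in d-NSC (adjusted p = 0.0096). The size rests on which CNS-NSC array is used: it was −0.86 without replicate 1 and −2.84 without replicate 2. The call was lost in the fit of these 2 groups alone (0.0634), in an unmoderated test (0.0904) and without either d-NSC replicate (0.0506 and 0.0539). For CNS-NSC minus mESC the difference was −0.12 ± 0.45, not called, with −1.10 (adjusted p = 6.15e-05) without CNS-NSC replicate 1 and 0.87 (adjusted p = 2.67e-04) without CNS-NSC replicate 2. The sign of this comparison is thus set by 1 array.

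Counted over the 9 members other than Aldh1l1, 1 rose (Nfib) and 1 fell (Glul) in p-NSC_L relative to mESC, where 13.4% of all genes were called (6.56% higher, 6.79% lower). None was called between p-NSC_LF and p-NSC_L, where 1.78% of all genes were (1.1% higher, 0.677% lower). Before adjustment 1 of the 9, Gja1, lay below 0.05 there in limma. In d-NSC relative to p-NSC_LF, 3 rose (Nfia, Slc1a2, Glul) and 2 fell (Ndrg2, Nfib), against 38.6% of all genes called (19.3% in each direction). In d-NSC relative to CNS-NSC, 5 were lower (S100b, Slc1a2, Ndrg2, Nfia, Nfib) and 1 higher (Gja1), against 34% of all genes called (17.6% higher, 16.5% lower). In CNS-NSC relative to mESC, 5 were higher (S100b, Aqp4, Slc1a2, Nfia, Nfib) and none lower, against 43.8% called (21.7% higher, 22.1% lower). The comparisons share groups, so their counts are not independent. The count of 2 called in p-NSC_L relative to mESC was 1 without mESC replicate 1 or 2 or p-NSC_L replicate 1, and the count of 5 in CNS-NSC relative to mESC was 8 without CNS-NSC replicate 1. The median difference of the 9 was 0.05 in d-NSC relative to p-NSC_LF and −1.14 in d-NSC relative to CNS-NSC, against −0.01 for all genes in both.

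**Figure D3:**
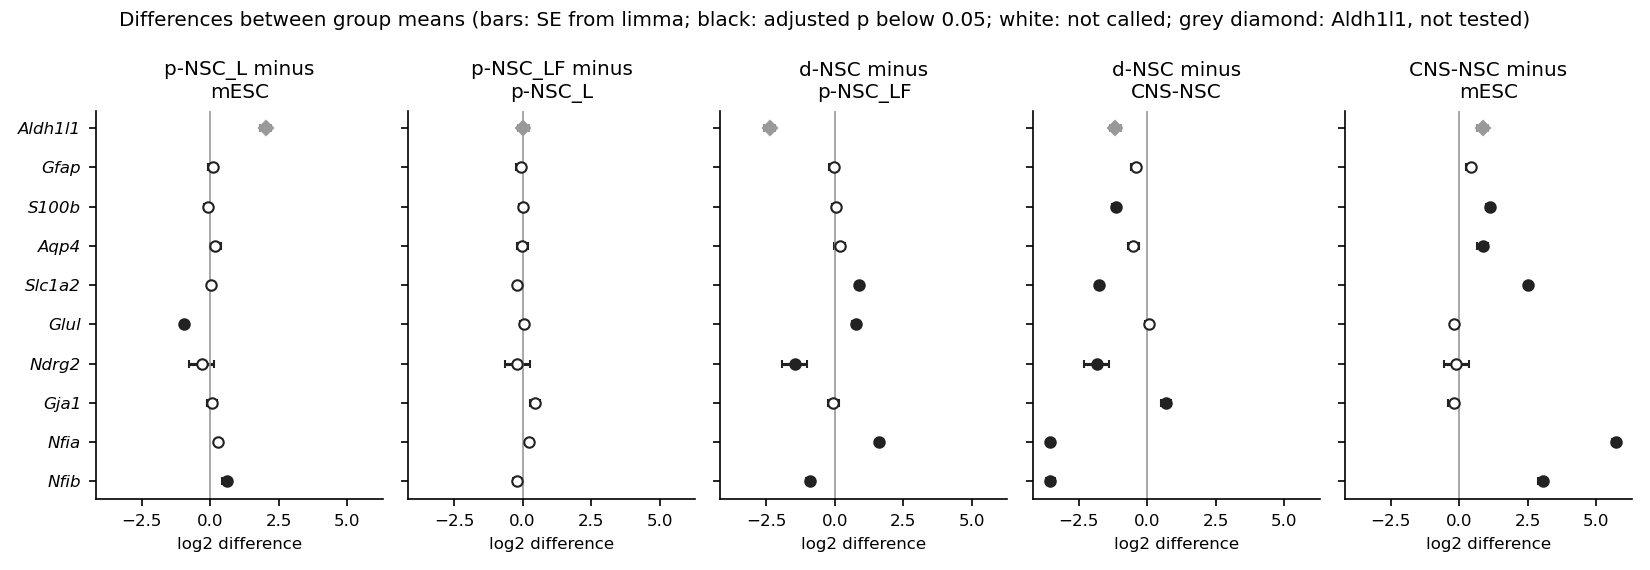
Difference of group means (log2 intensity, horizontal axes) for each of the 10 astroglial genes in the 5 comparisons. Points are differences, bars are SE from limma, black circles have an adjusted p below 0.05 and white circles do not. Grey diamonds are Aldh1l1, marked as not tested because its values are given as a description only. Nfia and Nfib lie near −3.5 in d-NSC minus CNS-NSC, and no circle is black in p-NSC_LF minus p-NSC_L.

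The highest group mean fell in CNS-NSC for 6 members (Gfap, S100b, Aqp4, Slc1a2, Nfia, Nfib), in mESC for Glul and Ndrg2 and in p-NSC_LF for Aldh1l1 and Gja1. The gap to the next culture was within the spread for Aldh1l1 (0.03 above p-NSC_L), Gja1 (0.05 above d-NSC) and Ndrg2 (0.12 above CNS-NSC). For Glul it was 0.15 above d-NSC, close to its SE of 0.12, and CNS-NSC replicate 1 read the same 11.71 as mESC replicate 1. Of the 6 highest in CNS-NSC, Gfap lay only 0.32 above p-NSC_L and Aqp4 0.51 above d-NSC. Neither was called between d-NSC and CNS-NSC, and Aqp4 was dim outside CNS-NSC. Over all genes, 28.6% had their highest mean in CNS-NSC, 17.1% in mESC and 16.5% in p-NSC_LF. Group means spanned at least 1 in 6 of the 10 members, and in 28.4% of all genes. The 6 include Aldh1l1, whose levels led to the choice of the list, so this count is a description only.

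Most other astroglial genes were lower in d-NSC than in CNS-NSC. Of 41 measured astroglial genes outside the 10, 27 were lower and 4 higher in d-NSC than in CNS-NSC, with a median difference of −1.22. Of all genes, 16.5% were lower and 17.6% higher. In d-NSC relative to p-NSC_LF, 11 of the 41 rose and 9 fell (median 0.19), against 19.3% of all genes in each direction. In CNS-NSC relative to mESC, 29 were higher and 4 lower (median 1.18), against 21.7% and 22.1% of all genes. The count lower in d-NSC than in CNS-NSC was 26 without either CNS-NSC replicate, an alternative chosen after seeing the data.

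Bcan, which encodes the matrix proteoglycan brevican, read 7.51 and 7.21 in d-NSC, against 12.95 and 12.67 in CNS-NSC, and was 5.45 ± 0.16 lower in d-NSC (adjusted p = 9.38e-09). Sparcl1, the gene of a synapse-promoting secreted protein, read 8.60 and 8.72 in d-NSC, against 12.99 and 13.33 in CNS-NSC, and was 4.50 ± 0.17 lower in d-NSC although it had risen by 1.79 ± 0.17 relative to p-NSC_LF. Slc25a18, a mitochondrial glutamate carrier gene, was 4.0 ± 0.13 lower in d-NSC than in CNS-NSC. For all 3 the 2 groups were far apart.

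Slc4a4, a bicarbonate cotransporter gene, and Sox9, the gene of the gliogenic factor named above, rose in d-NSC relative to p-NSC_LF by 1.84 ± 0.11 and 2.23 ± 0.11. Other genes of the list fell at this step. Cbs, which encodes cystathionine beta-synthase, fell by 2.34 ± 0.13, and Apoe, the astrocyte lipoprotein gene, fell by 1.66 ± 0.26. Cldn10, a claudin gene, was 1.23 ± 0.18 higher in d-NSC than in CNS-NSC.

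**Figure D4:**
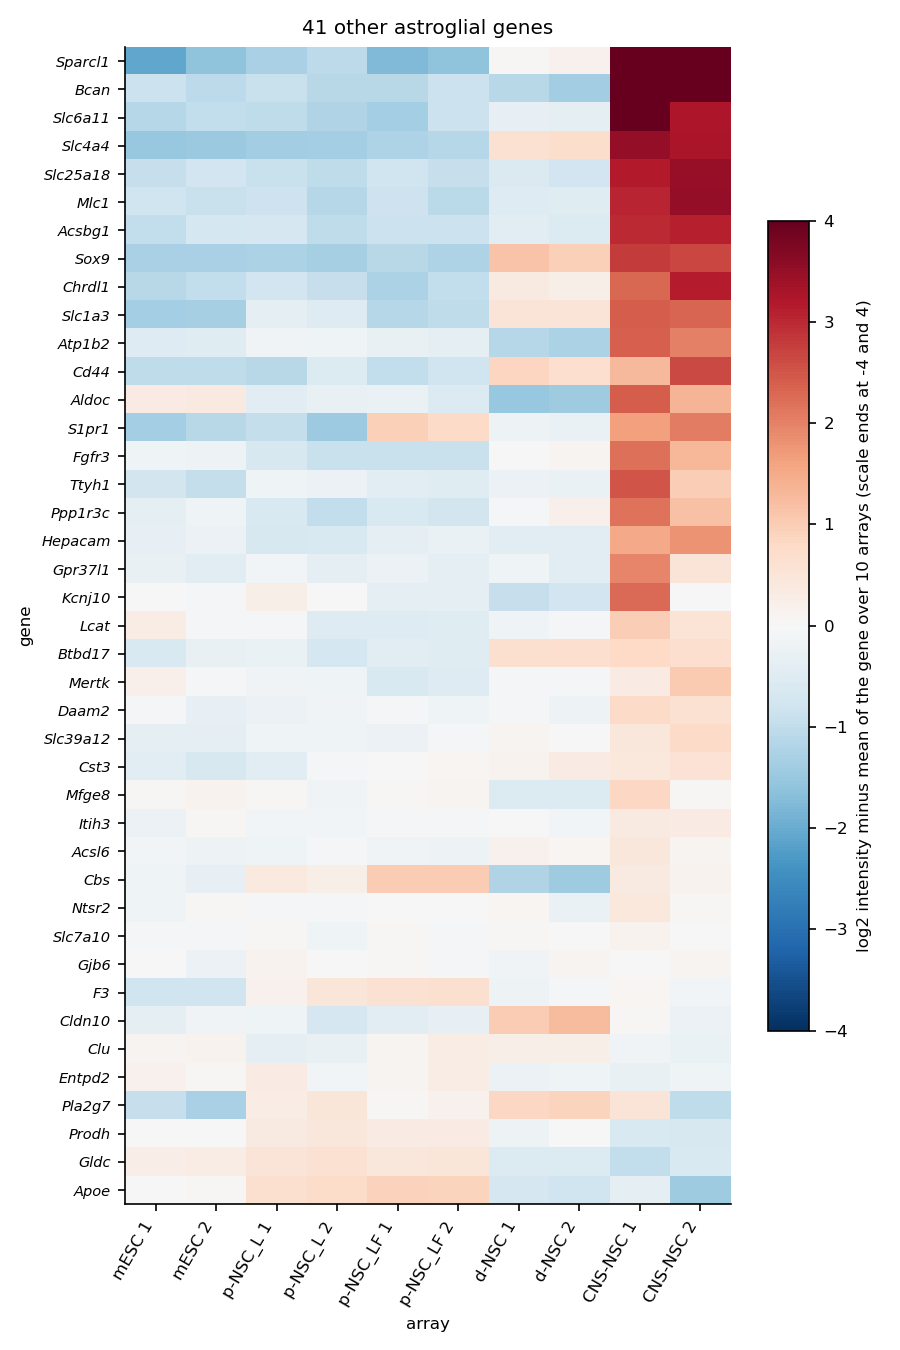
Log2 intensity of 41 other astroglial genes (rows) on each array (columns), minus the mean of each gene over the 10 arrays; red is above and blue below that mean, with the scale ending at −4 and 4. The CNS-NSC columns hold the darkest red, and the d-NSC columns are faint red at Slc4a4, Sox9 and Cldn10.

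Most gliogenic factor genes that were called rose in d-NSC relative to p-NSC_LF, but most of those called against CNS-NSC were lower in d-NSC. Of 19 measured gliogenic transcription factor genes other than the members, 10 rose and 3 fell in d-NSC relative to p-NSC_LF. Their median difference was 0.63, and 19.3% of all genes were called in each direction. Rfx4, which encodes a factor of the neural tube and of radial glia, rose by 3.52 ± 0.10 and stayed 1.75 ± 0.10 below CNS-NSC. Id2, an inhibitor of bHLH factors, rose by 2.19 ± 0.21, while Id4, a relative, fell by 1.26 ± 0.23. Stat3, the transcription factor of the Lif pathway, read 9.71 and 9.61 in d-NSC, against 10.72 and 10.75 in p-NSC_LF, and fell by 1.08 ± 0.12 (adjusted p = 4.79e-05). It was 1.73 ± 0.12 lower in d-NSC than in CNS-NSC. Relative to CNS-NSC, 3 of the 19 were higher in d-NSC and 11 lower, with a median of −1.09. Of all genes, 17.6% were higher and 16.5% lower.

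Of 20 measured genes of the cytokine, BMP and Notch pathways, 12 rose and 4 fell in d-NSC relative to p-NSC_LF. The share of all genes was 19.3% in each direction. Cntfr, the receptor subunit that binds the gliogenic cytokine CNTF, read 12.32 and 12.14 in d-NSC, against 8.21 and 8.11 in p-NSC_LF. It rose by 4.07 ± 0.15 (limma, adjusted p = 5.39e-08) and was also 1.54 ± 0.15 higher in d-NSC than in CNS-NSC. Socs3, a feedback inhibitor gene that STAT3 induces, fell by 2.10 ± 0.10, and Lifr, the Lif receptor gene, fell by 1.46 ± 0.11. Lifr was also 1.41 ± 0.11 lower in d-NSC than in CNS-NSC (adjusted p = 6.71e-06). Of the 20 genes, 6 were higher and 8 lower in d-NSC than in CNS-NSC, against 17.6% and 16.5% of all genes.

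Markers of other cell types differed between the same groups. Of all genes, 19.3% rose and 19.3% fell in d-NSC relative to p-NSC_LF. In d-NSC relative to CNS-NSC, 17.6% were higher and 16.5% lower. Of 14 radial glia genes, 10 rose and 1 fell in d-NSC relative to p-NSC_LF, with a median of 1.31, and their mean level was 10.84 and 10.83 in d-NSC, against 8.93 and 8.95 in p-NSC_LF. Of 15 neuron genes, 13 rose and 2 fell at the same step. Of 13 oligodendrocyte lineage genes, 5 were lower and none higher in d-NSC than in CNS-NSC, with Olig2 at 8.34 and 8.27 in d-NSC, against 12.54 and 12.72 in CNS-NSC. Of 10 fibroblast genes, 7 were higher and 1 lower in d-NSC than in CNS-NSC. Of 11 endothelial and pericyte genes, 9 were higher and 1 lower, with a median of 0.72, and of the 15 neuron genes 8 were higher and 3 lower, with a median of 0.77. In the same comparison, 3 of the 14 radial glia genes were higher and 7 lower, with a median of −0.46. Of the 12 pluripotency genes, 10 were higher and none lower, with a median of 2. The 11 microglia genes had a mean level between 6.93 and 7.20 on all 10 arrays. Single genes moved: 1 rose and 1, Cd68, fell by 3.36 ± 0.13 in d-NSC relative to p-NSC_LF. The part of these cell types in the levels of the 10 members was not tested.

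Among the 10 members the CNS-NSC replicates differed most at Ndrg2, which was 1.97 higher in replicate 1 (12.06 and 10.08). Aldh1l1 went the other way, 0.79 lower in replicate 1. The gap between these arrays was in view when the genes were chosen, so it is described without a test. Aqp4 was 0.67 higher and S100b 0.42 higher in replicate 1. Nfia (−0.20) and Slc1a2 (0.06) were close between the 2 arrays, and for Nfia the mean of its probe sets gave 0.07. The 10 members thus did not move together between the forebrain cultures, with a median of −0.04.

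Other lists differed between the same 2 arrays. Of 13 oligodendrocyte lineage genes, 5 were at least 2-fold higher in replicate 1 and none in replicate 2, with a median of 0.83. Gpr17, the gene of a receptor of oligodendrocyte precursors, read 10.16 and 7.19, and Pdgfra, their growth factor receptor gene, read 10.89 and 8.52. Among the 41 other astroglial genes, 6 were at least 2-fold higher in replicate 1, led by Kcnj10, a potassium channel gene at 10.50 and 8.26, and 1, Cd44, in replicate 2. Dcx, which marks young neurons, was 2.36 higher in replicate 1. Over all genes 177 were at least 2-fold higher in replicate 1 and 100 in replicate 2. Genes named for these replicates were chosen after their values were seen, and their part in the differences of the members was not tested.

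**Figure D5:**
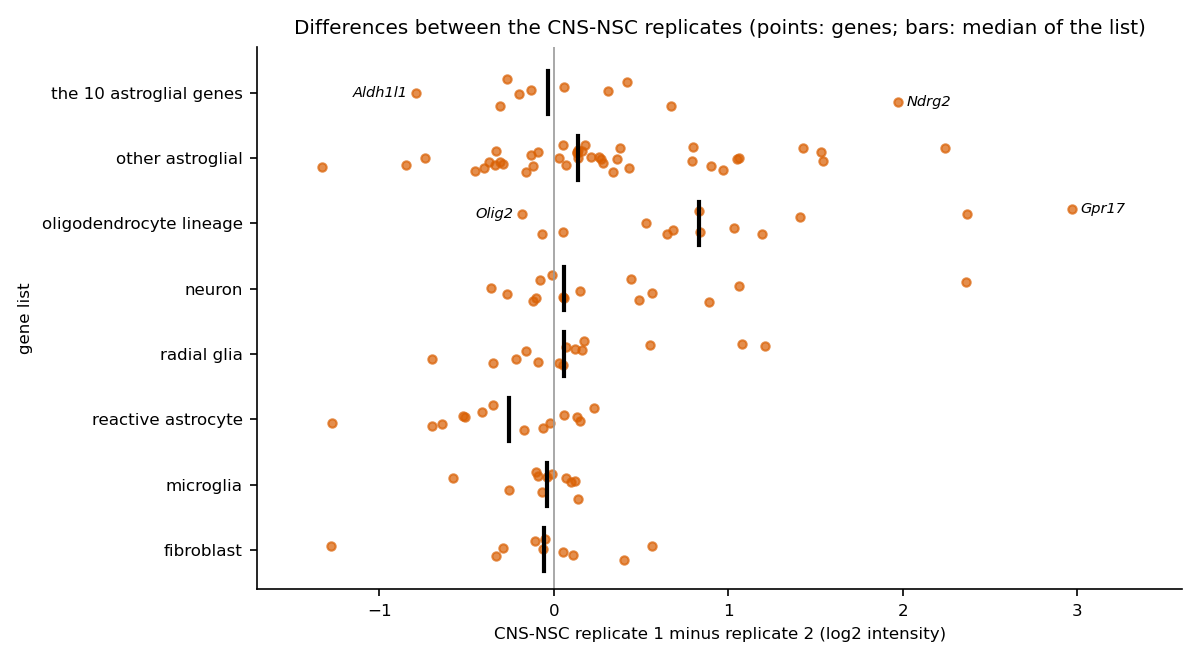
Difference between CNS-NSC replicate 1 and replicate 2 (log2 intensity, horizontal axis) for the genes of 8 lists (rows); points are genes, spread vertically for legibility, and bars are list medians. The median of the oligodendrocyte lineage list is 0.83, and Ndrg2 and Aldh1l1 are at opposite ends of the 10 astroglial genes.

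Likeness of pattern was measured as the root mean square difference of 2 genes over the 10 arrays after each was centred on its own mean. Among the members S100b and Aqp4 were most alike, at 0.24, and Aldh1l1 and Nfia least, at 2.52. Nfia and Nfib were 1.35 apart. Over all named genes, those closest to Aldh1l1 were Qpct (0.35), Pudp (0.389), St8sia1 (0.404), Zc3hav1 (0.411) and Aspa (0.411). Qpct, which encodes glutaminyl cyclase, read 6.68 and 7.21 in d-NSC, against 9.45 and 9.44 in p-NSC_LF. Aspa, which encodes aspartoacylase, read 6.24 and 6.21 in d-NSC, against 8.88 and 8.69 in p-NSC_LF. These values follow from how the genes were picked.

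The genes closest to S100b were Fas (0.084), Dhh (0.091), Il15ra (0.096), Sez6l (0.097) and Gper1 (0.104), all with their highest mean in CNS-NSC. Those closest to Gfap, led by Ccl28 (0.079) and Ccdc162 (0.087), had group means that spanned 0.29 to 0.47. Those closest to Gja1, led by Rnf43 (0.145) and Snai1 (0.151), had means that spanned 0.46 to 0.78. Flat genes lie close to many others by this measure.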

How the data were processed

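Total RNA of 10 mouse cultures was extracted with Trizol and hybridised to Affymetrix whole-transcript arrays, per the labels' protocols. The deposited values are log2 intensities for 35556 probe sets, made with RMA and Partek per the submitters' processing notes, without versions; the base of the logarithm follows from their range, 2.07 to 14.74. RMA removes background, makes the arrays' distributions alike and merges probes, so small values differ by less than the RNA did. Array medians lay between 7.66 and 7.76, and the number of arrays limits the precision. No build for the arrays is named in the labels used.

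Probe sets with 1 symbol in the platform annotation were used (21789, against 1621 with several and 12146 with none here); 21698 matched RefSeq by gene number. The highest-mean probe set stood for each of 999 genes with more than 1, which left 19938 genes with no filter. All 10 arrays entered 1 limma fit (version 3.58.1, R 4.3.3) with a mean for each group (5 residual and 4.9 prior degrees of freedom), with Benjamini-Hochberg adjustment over all genes and a threshold of 0.05. The fit was checked on simulated data. Python 3.11.15 with pandas 2.3.3 prepared tables.

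Calls were planned over all 10 members; Aldh1l1 was then left out of the counts, because its levels led to the choice of the list. The 10 members, the gene lists and the tests were chosen with earlier results of these data known. Named genes are the members, measured paralogs, up to 3 called rises and 3 falls per list and comparison, and the 5 genes most like Aldh1l1, Gfap, S100b or Gja1; any other gene, such as Hprt, was picked with its values in view. Alternatives were quantile normalization, leaving out the dimmer 30% of genes, the mean of probe sets, the replicate number as a block, only the 2 groups compared, an unmoderated test and leaving out each replicate. P-values set a difference against the spread between these replicate arrays. In the main fit that spread was estimated over all groups together, although the CNS-NSC and p-NSC_L replicates differed more than the others.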

Additional observations from a re-analysis of the deposited data

How the results depend on the processing

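Of 435 alternative values for the 45 differences of the 9 members other than Aldh1l1, 386 kept their direction and side of the threshold, 20 lost a call, 10 gained one and 19 changed sign. The labels give all groups replicate numbers 1 and 2, which do not say that same-numbered samples belong together; their deviations correlated at −0.11 to 0.37, so the numbers were not taken to pair the samples. With the replicate block the numbers of these members called were 2, 0, 5, 6 and 5 in the 5 comparisons in the order of the report, the same as without it, and those of all genes 2958, 407, 7943, 7108 and 8992. Counting Aldh1l1 too, as first planned, gave 3, 0, 6, 7 and 6. These counts are not a test of Aldh1l1, because its levels led to the choice of the list. Leaving out 1 replicate gave 1 to 3, 0 to 1, 4, 4 to 7 and 4 to 8 members called; the 1 between p-NSC_LF and p-NSC_L was Gja1 without p-NSC_L replicate 1. In p-NSC_L minus mESC 1 member was called with the mean of probe sets, in an unmoderated test and with the 2 groups alone, and in CNS-NSC minus mESC 3 were called with the dimmer 30% of genes left out, of the fewer genes tested. Of all genes, 2662 were called in p-NSC_L minus mESC, but 1587 in an unmoderated test, 1480 with these 2 groups alone and 1102 and 1205 without mESC replicate 1 and 2. In p-NSC_LF minus p-NSC_L 355 were called, but 89 unmoderated, 99 with 2 groups alone, 826 without p-NSC_L replicate 2 and 48 and 70 without p-NSC_LF replicate 1 and 2. Gja1 in p-NSC_L minus mESC (0.07) and Glul in CNS-NSC minus mESC (−0.20) passed it at 0.43 without p-NSC_L replicate 2 and −0.35 without CNS-NSC replicate 1. Signs changed for small differences, and the ranges over leaving out each replicate span 0. In p-NSC_L minus mESC they were −0.08 to 0.26 for Gfap (below 0 without mESC replicate 1, and −0.03 without p-NSC_L replicate 1), −0.03 to 0.08 for Slc1a2 and −0.30 to 0.43 for Gja1 (−0.02 without mESC replicate 2). In p-NSC_LF minus p-NSC_L they were −0.00 to 0.07 for Aldh1l1, −0.19 to 0.06 for Gfap (0.03 without p-NSC_LF replicate 1), −0.06 to 0.08 for S100b (−0.01 without p-NSC_L replicate 2, and −0.00 in quantile-normalized values), −0.13 to 0.10 for Aqp4 and −0.42 to 0.03 for Nfib, and the mean of probe sets gave −0.10 for Glul. In d-NSC minus p-NSC_LF they were −0.14 to 0.06 for Gfap (0.04 without d-NSC replicate 2) and −0.09 to 0.19 for S100b (−0.01 without p-NSC_LF replicate 1). In d-NSC minus CNS-NSC Glul ran from −0.11 to 0.20, and in CNS-NSC minus mESC Ndrg2 from −1.10 to 0.87. The causes were not tested. The 2 arrays a group limit all values, and S100b and Aqp4 were dim outside CNS-NSC.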
